A study of Mus musculus with 4 samples.

Results

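The genes described here are 10 components of the machinery that takes a cell from the G1 phase into DNA synthesis: the D-type cyclins Ccnd2 and Ccnd3, the E-type cyclins Ccne1 and Ccne2, the kinases Cdk2, Cdk4 and Cdk6, the phosphatase Cdc25a and the transcription factors E2f1 and E2f2. They were chosen by name, with earlier results of these data known, so their values beside those of all genes are a description. They are the rows of the deposited expression table that carry these symbols, and all 10 were found among its 16142 genes. RNA-seq had been done on splenic CD4+ T cells of 2 groups with 2 libraries each. WT cells came from C57BL/6 (B6) mice, and R111A cells from Cd4CreERT2 LSL-R111A fl/fl mice, which express a form of Regnase-1 that the protease MALT1 cannot cleave. In these mice the mutant is encoded by a transgene in Rosa26 behind a CAG promoter and a floxed STOP cassette, is followed by EGFP, and is switched on in CD4-expressing cells by tamoxifen (75 mg/kg, 5 days). Mice were 6 to 12 weeks old and of both sexes unless specified otherwise. The protocol names tamoxifen after both strains and was read as covering WT mice, which lack the Cre and the transgene. CD4+ cells were enriched from spleen by bead depletion of other cells and then sorted by FACS. The study's general sorting scheme gates GFP+ cells of reporter mice and parts them by CD25, and whether these libraries were from CD25-negative or from all CD4+ cells was not clear from the sources used here. Both groups then received 12 h of stimulation by anti-CD3 at 5 µg/mL plus anti-CD28 at 1 µg/mL before RNA was taken, so each comparison below is between stimulated cells. Unstimulated cells were not analysed here.

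T cells leave quiescence after antigen receptor and CD28 signals. D-type cyclins then accumulate and activate CDK4 and CDK6, which begin to phosphorylate the retinoblastoma protein and so release E2F transcription factors. E2F1 and E2F2 in turn drive genes of the next step, among them cyclin E, which activates CDK2, and the phosphatase CDC25A removes inhibitory phosphates from CDK2. Regnase-1 is an RNase that degrades selected mRNAs and is itself removed by MALT1 after T cell activation. The comparison asks how the mRNAs of this machinery stand in cells whose Regnase-1 persists.

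Values are FPKM, fragment numbers scaled to the length of the transcript and to the fragments mapped in the library, so the levels of different genes in a library can be compared. The libraries were not on one common scale. The sum over all genes was 801475 FPKM for WT replicate 1 and 836143 FPKM for WT replicate 2, against 1053551 FPKM for R111A replicate 1 and 1012215 FPKM for R111A replicate 2. From the steps that single fragments leave among low values of genes with a single annotated transcript, depth was estimated at 16800000 and 16600000 fragments for the WT libraries and 16100000 and 14200000 for the R111A libraries. Zc3h12a, which encodes Regnase-1, measured 16.97 and 15.72 FPKM in the 2 WT libraries against 196.3 and 130.87 FPKM in the 2 R111A libraries, in the direction of the labels. Replicates differed more within R111A, with a median absolute log2 difference of 0.22 between the libraries for genes above 10 FPKM, than within WT, where it was 0.09.

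Of the 10 genes, 7 were lower in R111A cells with an adjusted p under 0.05 and a change of at least 2-fold: Ccnd2, Ccne1, Cdk2, Cdk4, Cdk6, Cdc25a and E2f1. Ccnd3 was higher, with an adjusted p under 0.05 and a change short of 2-fold, and Ccne2 and E2f2 did not pass. Across the 9831 genes tested (a mean of at least 1 FPKM), 8.34% were called lower by both thresholds and 32.1% by the adjusted p alone, while 8.52% were called higher by both and 21.2% by the adjusted p alone. The median log2 fold change of the 10 genes was -1.48, beside a median of -0.12 over all genes tested. With a pseudocount of 5 FPKM the median of the 10 was -0.98. Both R111A libraries lay below both WT libraries for 7 of the 10 genes and above them for 2, beside 46.3% and 32% of the genes tested. Fold changes on the log2 scale were fitted by limma to log2(FPKM + 1), which understates the change of genes with low values. All 10 genes passed the filter, but the mean of Ccne1 reached 1 FPKM only through WT and that of E2f2 only through R111A. Because the libraries differ in their sums, rescaling to TPM moved the median of all genes by -0.30, to -0.42, and the share of higher genes among those past the adjusted p from 39.8% to 20.7%. Each of the 7 lower genes stayed lower, and Ccnd3 higher, under that scaling and under median-of-ratios and quantile scaling. Fewer cells in the cycle and less of an mRNA in each cell cannot be told apart in bulk RNA. The labels do not say that the replicates are separate animals, so the p-values measure the spread between these libraries, which may be technical.

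**Figure D1:**
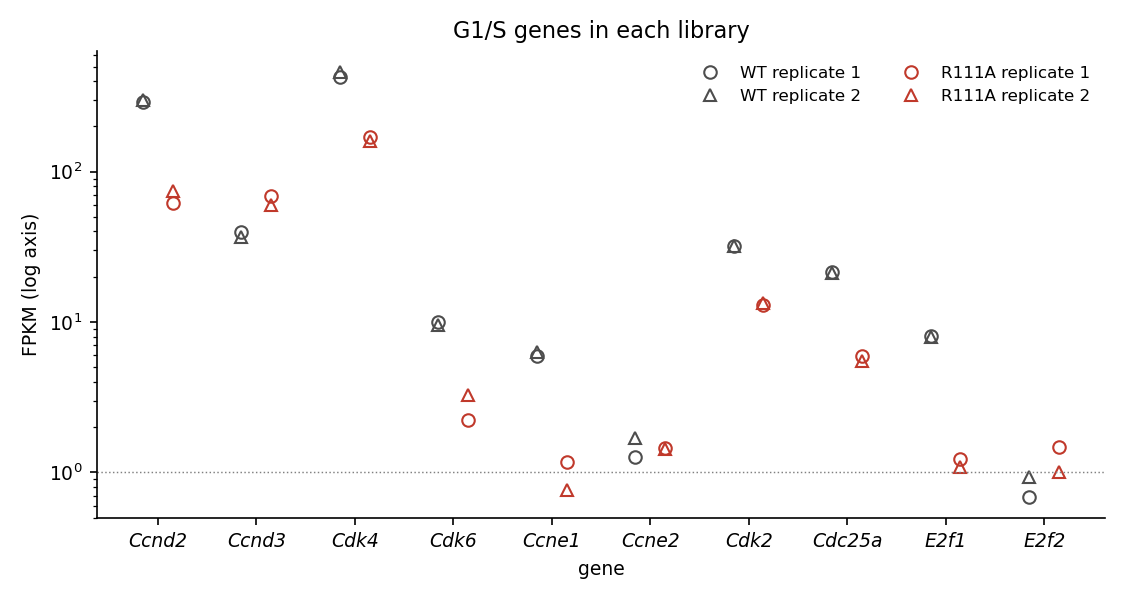
FPKM (log axis) of the 10 G1/S genes in each library, with circles for replicate 1 and triangles for replicate 2, WT in grey and R111A in red. The dotted line marks 1 FPKM. Both R111A points lie below both WT points for 7 genes and above them for Ccnd3 and E2f2, and the groups overlap for Ccne2.

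The D-type cyclins moved in opposite directions. Ccnd2 (NCBI gene 12444, chr6:127125162-127152188 of GRCm38), a cyclin that is induced by mitogens in lymphocytes, stood at 290.66 and 299.98 FPKM for WT and 62.3 and 74.44 FPKM for R111A. Both R111A libraries were far below both WT libraries, with a mean 4.32-fold lower (log2 fold change -2.10, SE 0.14, limma adjusted p = 1.2e-05), and its log2 fold change ranked 58 from the lowest among the 9831 genes tested. Ccnd3 (NCBI gene 12445, chr17:47505051-47599689), the other D-type cyclin of T cells, had 39.95 and 36.54 FPKM in the WT libraries and 69.19 and 60.19 FPKM in the R111A libraries. Its level was 1.69-fold higher in R111A, without overlap between the groups (log2 fold change 0.74, SE 0.14, limma adjusted p = 0.0022). After rescaling to TPM the log2 fold change of Ccnd3 was 0.41 (limma adjusted p = 0.025), which is 0.83 above the median of all genes on that scale. Ccnd3 shares 361 bases with Bysl on the opposite strand, and Bysl measured 40.98 and 40.03 FPKM in the 2 WT libraries against 35.75 and 27.21 FPKM in the 2 R111A libraries. Whether the counting used strand was not stated, so fragments from the shared stretch cannot be assigned. Ccnd2 likewise shares 2805 and 994 bases of its span with the antisense genes 9330179D12Rik and Gm43126, which have no row in the table. Ccnd1, the third D-type cyclin, was at 0.06 FPKM or less in each of the 4 libraries. Ccnd3 therefore made up 12.1% and 10.9% of the D-type cyclin FPKM in the WT libraries and 52.6% and 44.7% in the R111A libraries. The summed level of the D-type cyclins was 330.6 and 336.5 FPKM for WT and 131.5 and 134.7 FPKM for R111A.

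The partner kinases of the D-type cyclins were both lower. Cdk4 (NCBI gene 12567, chr10:127063535-127067288) had the highest level of the 10 genes in each library, with 424.1 and 459.99 FPKM for WT and 169.22 and 159.39 FPKM for R111A. The groups did not overlap, and the R111A mean was 2.69-fold lower (log2 fold change -1.42, SE 0.12, limma adjusted p = 4.5e-05). Cdk4 overlaps Tspan31 on the opposite strand by 641 bases, and Tspan31 lay between 19.07 and 23.14 FPKM in the 4 libraries. Cdk6 (NCBI gene 12571, chr5:3341004-3531008), the second kinase that binds D-type cyclins, stood at 9.95 and 9.54 FPKM for WT and 2.23 and 3.26 FPKM for R111A. Its span holds 8013 and 1448 bases shared with the antisense genes Gm17590 and Gm42435, which have no row in the table. Its R111A libraries differed from each other more than its WT libraries but stayed below both of them, and the mean was 3.55-fold lower (log2 fold change -1.53, SE 0.17, limma adjusted p = 0.00014). With a pseudocount of 5 FPKM the log2 fold change of Cdk6 was -0.93, short of 2-fold. Cdk4 kept its share of the summed FPKM of the 10 genes, 50.8% and 52.5% in WT and 51.7% and 49.7% in R111A, while that sum was 834.1 and 875.9 FPKM for WT and 327.2 and 320.4 FPKM for R111A.

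Of the E-type cyclins, which activate CDK2 at the onset of S phase, Ccne1 was lower and Ccne2 was not called. Ccne1 (NCBI gene 12447, chr7:38097984-38107490) had 5.95 and 6.29 FPKM in the WT libraries and 1.17 and 0.76 FPKM in the R111A libraries. The WT libraries lay close together and well above the R111A libraries, whose mean was 6.34-fold lower (log2 fold change -1.86, SE 0.16, limma adjusted p = 3.7e-05). These R111A values stand for an estimated 34 and 19 fragments, against 180 and 187 in WT, so counting error weighs on them. With a pseudocount of 5 FPKM the log2 fold change of Ccne1 was -0.90, short of 2-fold. Ccne2 (NCBI gene 12448, chr4:11190433-11204779) measured 1.27 and 1.69 FPKM in the 2 WT libraries against 1.46 and 1.44 FPKM in the 2 R111A libraries. Both R111A values lay between the WT values, with a log2 fold change of -0.012 and a 95% interval from -0.35 to 0.32 (limma adjusted p = 0.95). The sign for Ccne2 turned with median-of-ratios factors (0.042) and without WT replicate 2 (0.11). An estimated 58 to 79 fragments stand behind each Ccne2 value, and the gene shares 5622 bases with Ints8 on the opposite strand, which was at 18.62 to 27.61 FPKM, so its level is uncertain where strand was not used.

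Cdk2 and Cdc25a were both lower, with little spread between replicates. Cdk2 (NCBI gene 12566, chr10:128697938-128705051), the kinase that cyclin E activates, stood at 31.97 and 31.95 FPKM for WT and 12.99 and 13.33 FPKM for R111A. The mean was 2.43-fold lower in R111A (log2 fold change -1.22, SE 0.13, limma adjusted p = 0.00012), the smallest change among the 7 lower genes on the log2(FPKM + 1) scale. Pmel, which shares 837 bases with Cdk2 on the opposite strand, was at 0.34 FPKM or less. Cdc25a (NCBI gene 12530, chr9:109875518-109893895), which activates CDK2 by dephosphorylation, had 21.5 and 21.03 FPKM in the WT libraries and 5.92 and 5.54 FPKM in the R111A libraries. The replicates of each group lay close together, and the R111A mean was 3.71-fold lower (log2 fold change -1.73, SE 0.14, limma adjusted p = 2.9e-05).

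Of the activator E2F genes, E2f1 was lower and E2f2 was not called. E2f1 (NCBI gene 13555, chr2:154559400-154569892), which encodes an activator of S phase genes, measured 8.08 and 7.97 FPKM in the 2 WT libraries against 1.23 and 1.09 FPKM in the 2 R111A libraries. Its R111A mean was 6.92-fold lower, the largest fold between group means among the 10 genes (log2 fold change -2.06, SE 0.14, limma adjusted p = 1.4e-05). The R111A values stand for an estimated 51 and 40 fragments, and the WT values for 348 and 337. The log2 fold change of E2f1 was -1.08 with a pseudocount of 5 FPKM and -2.69 with one of 0.1 FPKM. E2f2 (NCBI gene 242705, chr4:136172274-136196057) stood at 0.69 and 0.93 FPKM for WT and 1.48 and 1 FPKM for R111A. Both R111A libraries were above both WT libraries, R111A replicate 2 by little, and the difference did not pass the threshold (log2 fold change 0.30, SE 0.16, 95% interval from -0.063 to 0.67, limma adjusted p = 0.14). Without R111A replicate 2 the log2 fold change of E2f2 was 0.46 (limma adjusted p = 0.033), a fit that leaves R111A replicate 1 as the only R111A library, and without R111A replicate 1 it was 0.15 (limma adjusted p = 0.38). Over the alternatives the adjusted p ranged from 0.033 to 0.68.

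**Figure D2:**
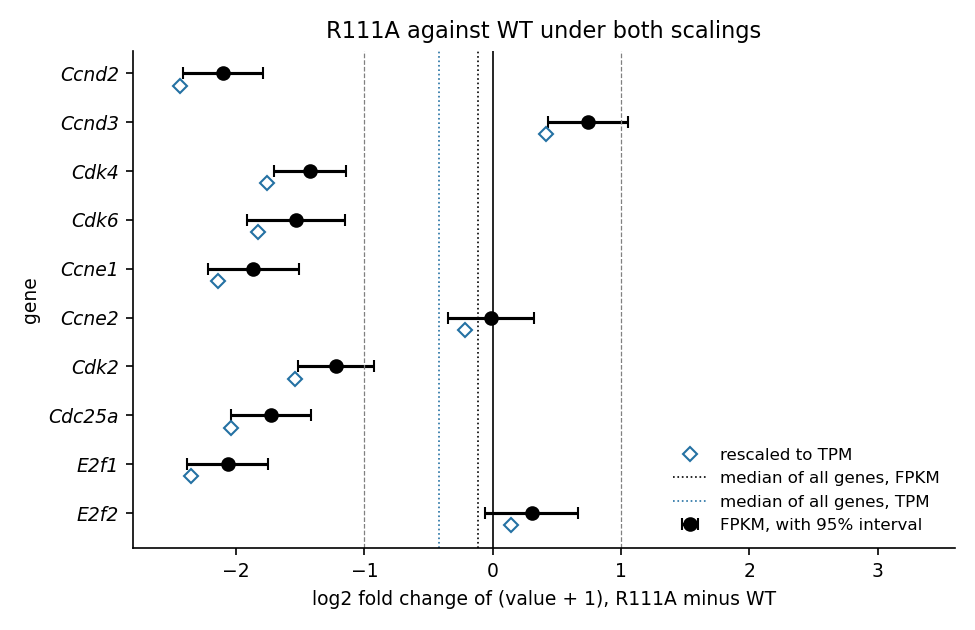
Log2 fold change of the 10 genes, R111A minus WT, on FPKM (black points, with 95% intervals from limma) and after rescaling to TPM (blue diamonds); dotted lines give the median of all genes on each scale and dashed lines a 2-fold change. The 7 lower genes lie beyond -1 on both scales, while Ccnd3 is at 0.74 on FPKM and 0.41 on TPM.

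The order of the levels changed at its lower end. In WT, mean FPKM ranked Cdk4, Ccnd2, Ccnd3, Cdk2, Cdc25a, Cdk6, E2f1, Ccne1, Ccne2 and E2f2, and no neighbours in this order overlapped between replicates. In R111A the first 6 places were held by the same genes in the same order, but the replicate ranges of Ccnd2 (68.4 FPKM on average) and Ccnd3 (64.7 FPKM) overlapped. Ccne2, E2f2, E2f1 and Ccne1 followed at 1.45, 1.24, 1.16 and 0.97 FPKM, and each neighbouring pair among these overlapped.

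Several of these genes are textbook E2F targets, and windows from 250 bases before to 50 bases after the start sites of a promoter table were searched for E2F letters. The RefSeq promoter table of GRCm38.p6 had entries for 8 of the 10 genes, with 10 windows in all, and not for Ccnd2 and Ccne2. Not every start site was the start of the RefSeq gene given above: those of E2f1 and Cdk6 lay 466 and 2889 bases inside the gene, the second ones of Ccnd3 and E2f2 further inside, and that of Cdc25a 61 bases inside. The region before the start of E2f1 and Cdk6 was therefore not searched. The letters searched on both strands were TTTCCCGC, TTTCGCGC, TTTGCCGC and TTTGGCGC for E2F and TTTGAA for the cell cycle homology region element. E2F letters were in 3 of the 10 windows, those of Cdk2, Cdc25a and E2f2, and in 2.26% of the 32851 windows of that table. TTTGAA was in 1 window, the second one of E2f2, and in 17.9% of the table. The windows with E2F letters are printed with these in capitals. A match is a description of these letters and not a binding site.
Cdk2 promoter, chr10:128705002-128705301, minus strand: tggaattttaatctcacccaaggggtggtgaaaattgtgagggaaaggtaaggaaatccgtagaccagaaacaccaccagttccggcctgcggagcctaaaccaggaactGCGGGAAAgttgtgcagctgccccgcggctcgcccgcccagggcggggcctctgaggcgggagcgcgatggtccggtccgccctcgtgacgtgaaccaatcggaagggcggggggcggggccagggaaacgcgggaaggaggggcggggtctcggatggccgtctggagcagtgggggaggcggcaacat
Cdc25a promoter, chr9:109875329-109875628, plus strand: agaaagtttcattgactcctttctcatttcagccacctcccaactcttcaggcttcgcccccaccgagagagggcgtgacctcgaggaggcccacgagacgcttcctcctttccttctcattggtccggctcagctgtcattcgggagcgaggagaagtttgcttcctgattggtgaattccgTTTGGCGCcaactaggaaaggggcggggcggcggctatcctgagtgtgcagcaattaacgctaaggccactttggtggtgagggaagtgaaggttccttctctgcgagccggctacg
E2f2 promoter, chr4:136172024-136172323, plus strand: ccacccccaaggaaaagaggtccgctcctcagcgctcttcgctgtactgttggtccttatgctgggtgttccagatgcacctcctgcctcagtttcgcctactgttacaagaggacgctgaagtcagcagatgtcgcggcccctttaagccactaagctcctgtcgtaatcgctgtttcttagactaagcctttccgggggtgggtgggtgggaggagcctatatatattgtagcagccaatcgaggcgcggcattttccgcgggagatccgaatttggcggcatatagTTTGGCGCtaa
In Cdk2 and Cdc25a, both lower in R111A, the letters begin 140 and 6 bases before the start of the gene. In E2f2, which was not called, they begin 39 bases after it.

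Regnase-1 is known to bind stem-loops with a pyrimidine-purine-pyrimidine loop in 3′ untranslated regions. A search chosen after the values were seen took each stem of 5 Watson-Crick pairs around such a loop of 3 bases, in the longest coding transcript of each gene in the GENCODE annotation of GRCm38. The study's own screen allowed shorter stems and longer loops and required a GC pair in the stem. That pair was not required here, and Ccne2 and Cdk6 each hold a site that lacks it. These letters occurred 8 times in 4 of the 10 genes, at 0.30 per kb of 3′ untranslated region, beside 0.19 per kb and 20.8% of genes over 20963 protein-coding genes. They occurred 3 times in Cdk6 over 10217 bases, 3 times in Ccne2 over 1681 bases, and once each in Cdk4 and Ccnd3. The sites are printed 5′ to 3′ with the loop in capitals, and lie on the plus strand. The Cdk4 site lies 154 bases past the end of the RefSeq gene, in a longer GENCODE transcript. Of the genes that hold them, Cdk4 and Cdk6 were lower in R111A, Ccnd3 was higher and Ccne2 was not called. The other lower genes, Ccnd2, Ccne1, Cdk2, Cdc25a and E2f1, held none, and neither did E2f2. The rate over the 10 genes is therefore not a rate of the lower genes.
Ccnd3, chr17:47599164-47599176: tcgggCATcccga
Ccne2, chr4:11203895-11203907: ttgtgTATcacaa
Ccne2, chr4:11204169-11204181: ttaaaTATtttaa
Ccne2, chr4:11204740-11204752: ttagtTACactaa
Cdk4, chr10:127067442-127067454: agaaaTGCtttct
Cdk6, chr5:3521598-3521610: ataagTATcttat
Cdk6, chr5:3523816-3523828: gacatCATatgtc
Cdk6, chr5:3528700-3528712: ttttaCATtaaaa

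Ratios of FPKM values within a library do not depend on its scaling. They were compared by an exact permutation test, two-sided, which cannot give a p below 0.333 with 2 libraries against 2, and each of the 9 ratios reached that value. Ccnd2 to Ccnd3 was 7.28 and 8.21 in WT and 0.90 and 1.24 in R111A, a 7.32-fold lower ratio. The ratio of Ccne1 to Ccne2 was 4.69 and 3.72 in WT and 0.80 and 0.53 in R111A. E2f1 to E2f2 was 11.7 and 8.57 in WT and 0.83 and 1.09 in R111A. In each of these pairs the gene that was the more abundant in WT lost that lead in at least 1 R111A library. Cdk6 to Cdk4 was 0.0235 and 0.0207 in WT and 0.0132 and 0.0205 in R111A, a log2 difference of -0.43 that was -0.11 without R111A replicate 1 and -0.74 without R111A replicate 2.

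Ratios across classes were taken next. Summed D-type cyclins to Cdk4 plus Cdk6 stood at 0.76 and 0.72 in WT and 0.77 and 0.83 in R111A, a log2 difference of 0.11 that was 0.054 without R111A replicate 2, 0.065 without WT replicate 2 and 0.16 without R111A replicate 1. Summed E-type cyclins to Cdk2 stood at 0.23 and 0.25 in WT and 0.20 and 0.17 in R111A, a log2 difference of -0.38 that was -0.23 without R111A replicate 2. The activators E2f1, E2f2 and E2f3 to the repressor-type E2f4 and E2f5 gave 0.109 and 0.106 in WT and 0.040 and 0.050 in R111A. Cdc25a to Wee1, which encodes the kinase that adds inhibitory phosphates, gave 1.86 and 1.86 in WT and 2.79 and 2.95 in R111A. Cdkn1a plus Cdkn1b to the sum of Cdk2, Cdk4 and Cdk6 gave 0.045 and 0.048 in WT and 1.72 and 1.39 in R111A, a 33.1-fold higher ratio.

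**Figure D3:**
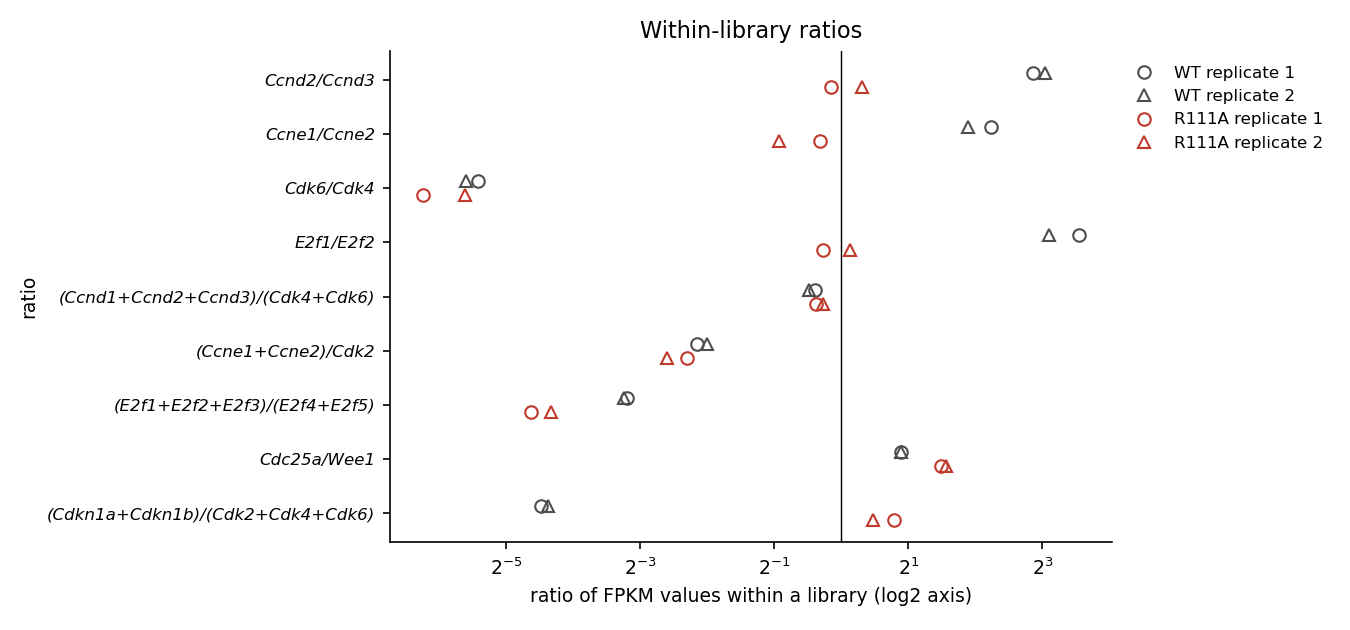
The 9 within-library ratios (log2 axis) in each library, with symbols as in the plot of FPKM by gene. The vertical line marks a ratio of 1. Ccnd2/Ccnd3, Ccne1/Ccne2 and E2f1/E2f2 fall to between 0.53 and 1.24 in R111A, the ratio of D-type cyclins to their kinases stays between 0.72 and 0.83, and the ratio of CDK inhibitors to CDKs crosses 1.

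The CDK inhibitor genes of the Cdkn families that were tested were higher. Of 8 CDK inhibitor genes, 4 were tested, and these 4 were higher by the adjusted p, 3 of them by both thresholds (all genes 21.2% and 8.52%), and their median log2 fold change was 1.74 (all genes -0.12, and 0.38 for the inhibitors with no filter). Cdkn1a, which encodes p21, had 14.29 and 15.45 FPKM in the WT libraries and 266.09 and 206.54 FPKM in the R111A libraries, and Cdkn1b, which encodes p27, was at 6.72 and 8.81 FPKM for WT and 50.91 and 38.36 FPKM for R111A. Cdkn2c measured 1.42 and 1.97 FPKM in the 2 WT libraries against 5.8 and 3.9 FPKM in the 2 R111A libraries, and its log2 fold change of 1.11 fell short of 2-fold after rescaling to TPM (0.88), with a pseudocount of 5 FPKM (0.55), without WT replicate 1 (0.96) and without R111A replicate 1 (0.87). Cdkn2d had a log2 fold change of 0.45 (limma adjusted p = 0.026), and its call was lost without WT replicate 1 (adjusted p = 0.14), without WT replicate 2 (0.34), with no filter (0.056) and after rescaling to TPM (0.41).

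Among 15 tested genes for other cyclins, CDKs and proteins that act on CDKs, which include inhibitory kinases such as Wee1 and a chaperone, 11 were lower and 2 higher by the adjusted p (all genes 32.1% and 21.2%), with a median of -0.75 (-0.50 with a pseudocount of 5 FPKM). Cks1b, a small CDK-binding subunit, stood at 96.67 and 90.58 FPKM for WT and 15.55 and 20.2 FPKM for R111A, and Cdk1, the mitotic kinase, at 2.45 and 2.39 FPKM for WT and 0.2 and 0.33 FPKM for R111A. Wee1 had a log2 fold change of -2.05 and Cks2 one of -1.29. The 2 higher genes were Cdc25b, a phosphatase of the G2/M transition, at 2.93 and 2.66 FPKM for WT and 9.9 and 5.89 FPKM for R111A, and the mitotic cyclin Ccnb2, at 0.95 and 0.96 FPKM for WT and 2.69 and 3.11 FPKM for R111A, which was named after its values were seen. Cdk1 and 2 further genes of the 11 reached 1 FPKM on average only through WT, and Ccnb2 only through R111A. With no filter 9 of 17 were lower and 2 higher by the adjusted p (all genes 19.8% and 17.2%).

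Most E2F target genes were lower. Of 25 textbook E2F targets outside the 10, 23 were lower by the adjusted p, 22 of them by both thresholds (all genes 32.1% and 8.34%), with a median of -1.64. A pseudocount of 5 FPKM left 13 lower by both thresholds (all genes 4.09%), with a median of -1.12. Orc1, a subunit of the origin recognition complex, had 10.46 and 9.36 FPKM in the WT libraries and 0.43 and 0.52 FPKM in the R111A libraries, and Uhrf1, which maintains DNA methylation at replication, was at 35.75 and 34.56 FPKM for WT and 3.99 and 3.87 FPKM for R111A. Pcna, which did not pass, was at 612.53 and 648.22 FPKM for WT and 532.09 and 592.99 FPKM for R111A, and it passed after rescaling to TPM (log2 fold change -0.50, limma adjusted p = 0.0045). Pcna was named after its values were seen. Orc1 and 3 others of the 23 reached 1 FPKM on average only through WT.

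Of 16 tested genes for other E2F, DP, pocket protein and DREAM subunits, 7 were lower and 1 higher by the adjusted p (all genes 32.1% and 21.2%), with a median of 0.0081 that turned negative with no filter, with TPM or quantile scaling, and without WT replicate 2 or either R111A replicate. Tfdp1, the dimer partner of E2F proteins, stood at 125.73 and 130.3 FPKM for WT and 29.29 and 31.67 FPKM for R111A. E2f3, the remaining activator, had 5.47 and 5.31 FPKM in the WT libraries and 1.21 and 1.86 FPKM in the R111A libraries. Rb1, which encodes the retinoblastoma protein, was the higher gene, at 6.98 and 7.6 FPKM for WT and 11.43 and 15.3 FPKM for R111A. E2f6 and Rbl1 had log2 fold changes of -1.18 and -1.05. E2f5 was not called (log2 fold change 0.26, limma adjusted p = 0.22) but was without R111A replicate 1 (adjusted p = 0.038).

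Of 16 tested ubiquitin ligase genes for G1/S proteins, 7 were lower by the adjusted p (32.1% of all genes were) and 9 did not pass, with a median of -0.33 (-0.64 after rescaling to TPM). Dtl, the substrate receptor that directs CDT1 and p21 to degradation, measured 13.88 and 12.88 FPKM in the 2 WT libraries against 0.57 and 0.9 FPKM in the 2 R111A libraries, and was the only one of the 16 past both thresholds in the main fit (all genes 8.34%), where its mean reached 1 FPKM only through WT. After rescaling to TPM 4 passed both (all genes 17.8%), and 2 did with a pseudocount of 0.1 FPKM, without WT replicate 2 and without R111A replicate 1. After rescaling to TPM 13 of the 16 were lower by the adjusted p (all genes 51.8%), and 4 were without WT replicate 2 (all genes 19.7%). Of 11 tested regulators of G1 entry in T cells, 6 were higher and 4 lower by the adjusted p (all genes 21.2% and 32.1%), with a median of 0.58 (0.27 after rescaling to TPM). The lower ones were 2 with median-of-ratios or quantile scaling (all genes 26.9% and 26.8%). They were also fewer without either WT replicate. The antiproliferative genes Btg2 (23.37 and 24.33 FPKM for WT, 110.74 and 97.01 FPKM for R111A) and Tob1 (4.51 and 4.27 FPKM for WT, 19.54 and 13.94 FPKM for R111A) were among the higher ones. Myc, a driver of T cell growth, stood at 228.22 and 203.56 FPKM for WT and 127.8 and 87.58 FPKM for R111A, and Klf2, a quiescence factor, at 24.7 and 20.88 FPKM for WT and 100.18 and 41.54 FPKM for R111A. With no filter the call of Klf2 was lost (limma adjusted p = 0.063).

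**Figure D4:**
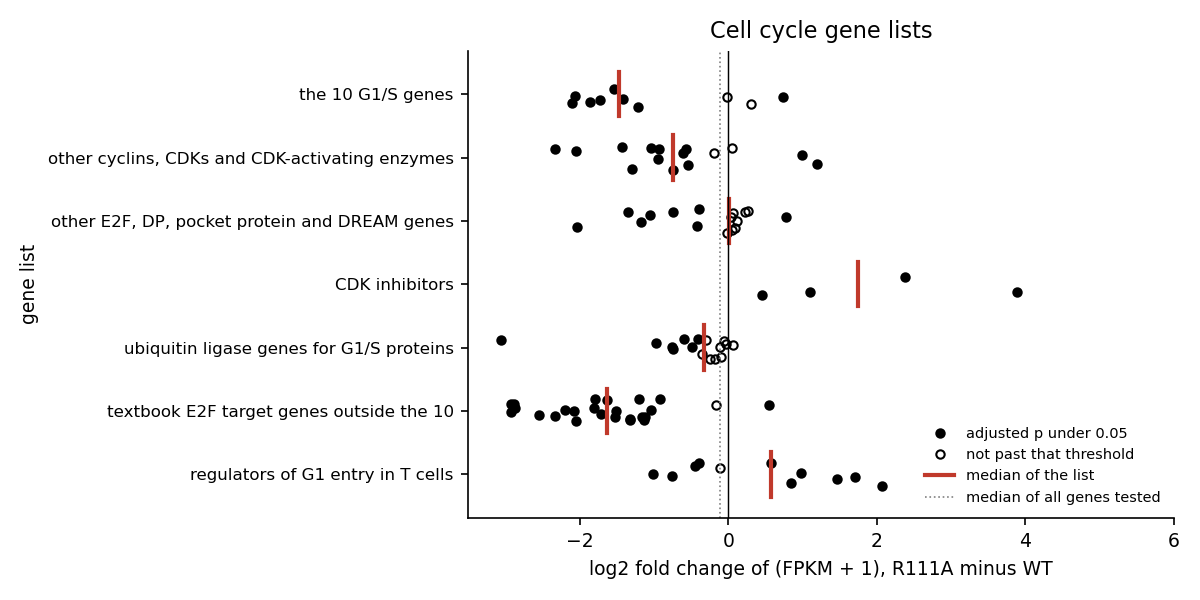
Log2 fold changes, R111A minus WT, of the genes tested in each list; filled points passed an adjusted p under 0.05 (limma), open points did not, red bars are list medians, and the dotted line is the median of all genes (-0.12). The 10 G1/S genes (median -1.48) and the textbook E2F targets (-1.64) lie mostly below 0, and the 4 tested CDK inhibitors lie above it.

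Markers were read to check the cells. The 6 markers of CD4+ T cells were each at 1 FPKM or more, with Cd3g the highest on average over the 4 libraries, and summed to 1445.1 and 1444.7 FPKM for WT and 1179.5 and 1127.2 FPKM for R111A. Cd4 itself was lower in R111A, at 157.54 and 131.28 FPKM for WT and 70.69 and 51.35 FPKM for R111A. Cd3g and Lck were also lower by the adjusted p, while Cd3e and Cd28 did not pass. Cd3d was higher, at 205.01 and 213.72 FPKM for WT and 275.23 and 266.87 FPKM for R111A (limma adjusted p = 0.029). After rescaling to TPM the call of Cd3d was lost (limma adjusted p = 0.81). Of the CD8 markers Cd8a was at 0.2 FPKM or less in each library and Cd8b1 at 7.21 and 6.56 FPKM for WT and 3.86 and 4.39 FPKM for R111A. The 2 proliferation markers, Mki67 and Top2a, summed to 13.9 and 12.5 FPKM for WT and 1.48 and 2.48 FPKM for R111A, with Top2a the more abundant. The 5 markers of resting naive T cells, led by Ccr7, summed to 438.9 and 401.9 FPKM for WT and 877.9 and 728.2 FPKM for R111A. The 6 activation markers, with Cd69 the highest in both WT libraries and Nr4a1 on average over the 4, summed to 738.5 and 760.5 FPKM for WT and 2130 and 1949.2 FPKM for R111A, but Cd44 was lower, at 31.42 and 28.75 FPKM for WT and 12.6 and 13.22 FPKM for R111A. Il2ra did not pass, at 140.21 and 136.12 FPKM for WT and 127.3 and 128.61 FPKM for R111A (limma adjusted p = 0.47). After rescaling to TPM Il2ra was lower (log2 fold change -0.44, limma adjusted p = 0.011).

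Markers of some other cells also moved with the group. Both Treg markers were at 1 FPKM or more, Foxp3 (11.31 and 8.78 FPKM for WT, 2.86 and 1.86 FPKM for R111A) the higher on average, and summed to 15.8 and 13.1 FPKM for WT and 5.21 and 6.22 FPKM for R111A. The other, Ikzf2, overlapped between the groups (4.5 and 4.34 FPKM for WT, 2.35 and 4.36 FPKM for R111A, limma adjusted p = 0.19). Of the 5 B cell markers, 2 reached 1 FPKM on average, Cd79a and Cd79b, with sums of 2.13 and 0.95 FPKM for WT and 5.13 and 4.49 FPKM for R111A. Of the 5 myeloid markers, 1 did, Lyz2, with sums of 0.68 and 0.12 FPKM for WT and 4.56 and 4.26 FPKM for R111A. Of the 5 erythroid markers, 1 did, Hba-a1, with sums of 0.66 and 0.70 FPKM for WT and 12.85 and 12.97 FPKM for R111A, while Hba-a2 and Hbb-bs were listed at 0 in the 4 libraries. The 3 NK cell markers were below 1 FPKM in each library and summed to 0.26 and 0.20 FPKM for WT and 0.93 and 0.98 FPKM for R111A. The bead depletion and the sort were steps meant to remove cells other than CD4+ T cells, and the part of any that remained in the levels of the G1/S genes was not tested.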

How the data were processed

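RNA-seq of polyA RNA was analysed for 2 WT and 2 R111A libraries, grouped by their labels. The authors removed adaptors and low-quality bases, aligned reads to mm10 and deposited FPKM values; the submitters' processing notes name Bowtie2 2.4.4 and RSEM 1.2.28. The FPKM values were used as deposited, and no per-sample column was left out. Genes averaging 1 FPKM or more (9831) entered limma 3.58.1 in R 4.3.3 as log2(FPKM + 1). The fit used lmFit, eBayes with trend and Benjamini-Hochberg adjustment, a procedure tested on simulated data. That simulation gave both groups the same spread, unlike these libraries, so it does not speak for the calls made here. Otherwise python 3.11.15 was used. The called genes passed an adjusted p under 0.05, or that and a 2-fold change. The authors' own test on counts was not repeated. The members and lists were chosen with earlier results of these data known. From each list the text names at most 5 tested genes with the largest absolute log2 fold change, and genes used in a ratio. Pcna and Ccnb2 are exceptions, named after their values were seen. Alternatives were pseudocounts of 0.1 and 5 FPKM, no filter or one at 5 FPKM, TPM, median-of-ratios and quantile scaling, the replicate number as a block, robust eBayes or eBayes without a trend, and each library left out. Depth was estimated at 14200000 to 16800000 fragments, which limits genes near 1 FPKM. Genes, promoters and coordinates came from RefSeq (GRCm38.p6), matched by gene ID for the 10 genes, and transcripts and overlaps from GENCODE. Protein sequences were not used here.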

Additional observations from a re-analysis of the deposited data

How the results depend on the processing

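The 7 lower G1/S genes and Ccnd3 kept their direction and their adjusted p under 0.05 in each alternative in which they were tested. A filter at 5 FPKM left out Ccne1, Ccne2, E2f1 and E2f2. Of 607 values for 44 genes, among them genes of the lists that the text does not name, 594 kept direction and side of the adjusted p threshold. The 2-fold threshold was not part of that count. These genes were the 10, those of each list with the largest absolute log2 fold change, those used in ratios, Zc3h12a, Pcna and Ccnb2. Most were thus picked for large changes in these data, and the share kept does not speak for other genes. One of those not named, Fbxo31, lost its call with no filter (adjusted p = 0.059) and without WT replicate 2 (0.14). The median of the 10 genes was -1.62 and -0.98 with pseudocounts of 0.1 and 5 FPKM, -1.79 after rescaling to TPM, -1.39 with median-of-ratios factors, -1.41 with quantile normalization, and -1.53 to -1.40 with a library left out. The number of these genes higher by the adjusted p was 1 to 2 with a library left out. Across all genes, TPM gave 1337 higher and 5128 lower by the adjusted p (main 2088 and 3152) and 1756 lower by both thresholds (main 820). A pseudocount of 5 FPKM gave 386 higher and 402 lower by both thresholds (main 838 and 820), and a filter at 5 FPKM, with fewer genes tested, 521 higher. With a library left out, 1937 to 3790 were lower by the adjusted p, and it was the fits without WT replicate 1 (1957) and WT replicate 2 (1937) that moved most. The lone library of a group is then assumed to vary like the other group. The median of the other E2F, DP, pocket protein and DREAM genes was -0.081 with no filter, -0.26 with TPM, -0.10 with quantile normalization and -0.10 to 0.011 with a library left out. Ccne2 turned to 0.042 with median-of-ratios factors and ranged from -0.13 to 0.11 with a library left out, and E2f5, not called, turned to -0.0495 with TPM. The causes were not tested. The replicate numbers share no stated animal or batch, and same-numbered libraries deviated together only weakly (correlation 0.11 across 9831 genes, which are not independent). With the replicate block, 2236 genes were higher and 3358 lower by the adjusted p, and 1 higher and 7 lower of the 10. Depth limits Ccne1, Ccne2, E2f1 and E2f2 in R111A, with an estimated 19 to 108 fragments each.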
